A study of Homo sapiens with 6 samples.

Results

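The proteins of the primary (azurophil) granules and lysozyme were followed as 6 named genes, *MPO*, *ELANE*, *PRTN3*, *AZU1*, *CTSG* and *LYZ*, which were chosen by symbol among the 30017 genes of the RNA-seq count table, and all 6 were among the 14758 genes that had enough counts to be tested. The libraries come from BLaER1-CTCF-mAID, a subclone of a human B cell leukemia line that converts into induced macrophages (iMacs) when an exogenous CEBPA, a myeloid transcription factor, is activated by an estradiol together with the cytokines IL-3 and CSF-1. All libraries carry the exogenous CEBPA and an auxin-inducible degron on CTCF, a protein that binds insulator sites and shapes chromatin loops. Each of 3 conditions has 2 biological replicates: uninduced cells without auxin (0 h), cells induced for 96 h without auxin (96 h control), and cells induced for 96 h with the auxin IAA, which triggers degradation of CTCF (96 h CTCF-depleted). All cells stem from 1 subclone, and a degron-free line given IAA is not analysed here, so IAA and loss of CTCF cannot be told apart.

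Primary granules are lysosome-like stores that are filled at the promyelocyte stage, and transcription of their genes normally ceases as neutrophils and monocytes mature. *MPO* encodes myeloperoxidase, the heme enzyme that turns hydrogen peroxide and chloride into hypochlorous acid. *ELANE* (neutrophil elastase), *PRTN3* (proteinase 3) and *CTSG* (cathepsin G) encode serine proteases that are stored in active form, and *AZU1* encodes azurocidin, a relative of these proteases that has lost its catalytic activity and kills bacteria directly. *LYZ* encodes lysozyme, which cleaves the peptidoglycan of bacterial cell walls. Lysozyme is not restricted to primary granules, since monocytes and macrophages make and secrete it throughout their life.

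*AZU1* (chromosome 19, 825097 to 832018), *PRTN3* (chromosome 19, 840999 to 848175) and *ELANE* (chromosome 19, 851014 to 856247) lie side by side on the plus strand (hg38, GENCODE release 44 gene spans), with start sites 13.2 kb and 24.5 kb downstream of that of *AZU1*. *CTSG* (chromosome 14, 24573518 to 24576250) and *MPO* (chromosome 17, 58269855 to 58280935) lie on the minus strand and *LYZ* (chromosome 12, 69348381 to 69354234) on the plus strand. The proximal promoters of the 3 genes with an entry in the RefSeq table (GRCh38.p14), 250 bases ending directly before the start site, are shown to set 2 genes of the cluster beside *CTSG*, which lies elsewhere. The windows are chr19:840749-840998 for *PRTN3*, chr19:827587-827836 for *AZU1* and chr14:24576251-24576500 for *CTSG*. They are printed in the direction of the gene, with capitals marking matches to short forms of the sites of myeloid regulators.
PRTN3: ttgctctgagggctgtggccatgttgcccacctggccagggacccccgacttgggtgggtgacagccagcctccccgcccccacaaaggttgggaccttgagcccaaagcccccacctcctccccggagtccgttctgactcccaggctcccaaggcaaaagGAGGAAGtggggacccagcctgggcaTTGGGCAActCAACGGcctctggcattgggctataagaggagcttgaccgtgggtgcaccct
AZU1: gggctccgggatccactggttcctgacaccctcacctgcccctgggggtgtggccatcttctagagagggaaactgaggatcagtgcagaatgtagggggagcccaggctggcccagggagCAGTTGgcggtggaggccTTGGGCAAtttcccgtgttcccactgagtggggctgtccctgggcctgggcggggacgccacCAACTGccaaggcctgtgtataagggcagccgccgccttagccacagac
CTSG: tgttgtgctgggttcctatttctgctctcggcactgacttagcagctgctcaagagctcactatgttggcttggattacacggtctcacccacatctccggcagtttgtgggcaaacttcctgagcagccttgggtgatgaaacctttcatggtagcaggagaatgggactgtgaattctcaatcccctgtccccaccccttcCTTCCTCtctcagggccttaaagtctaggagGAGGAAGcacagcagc

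The letters searched on both strands, chosen after these sequences had been seen, were GAGGAAG (a PU.1-type site), TTNNGCAA (C/EBP-type), CAACNG (MYB-type) and TGTGGT (RUNX-type), which occur in 11.05%, 9.13%, 27.2% and 10.9% of 27305 RefSeq promoter windows of this length. *PRTN3* has a PU.1-type match 88 to 82 bases before its start, followed by a C/EBP-type match at 62 to 55 and a MYB-type match at 52 to 47. *AZU1* has the same C/EBP-type letters at 111 to 104, between MYB-type matches at 129 to 124 and 49 to 44. *CTSG* has 2 PU.1-type matches, at 47 to 41 on the opposite strand and at 16 to 10 on the strand shown. No matches overlap each other. They describe letters in these windows, and no binding was measured here.

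Total counts ranged from 9273470 to 12718780 per library. *CTCF* itself had 1875 to 2062 counts in the 4 libraries at 96 h, and since the degron removes protein, its transcript does not measure depletion. Markers of B cells made up 3392 and 3416 summed CPM (counts scaled to a common library size after TMM normalization) at 0 h for 11 genes, 402 and 405 in the 96 h control and 346 and 361 with CTCF depletion, and 11 of 11 were called lower than at 0 h in the control and with CTCF depletion, as were 22.9% and 25.2% of all genes tested. A gene was called where edgeR's quasi-likelihood test over all tested genes gave an adjusted p below 0.01 together with a log2 fold change beyond 0.6 in either direction. Both thresholds follow the methods of the study, which applied them with DESeq2, whereas edgeR is the main test here. Between the 96 h groups, 3 of the 11 B cell markers (*VPREB1*, *IGLL1* and *RAG1*) were called lower with CTCF depletion and 0 higher. The shares of all genes tested were 7.03% and 5.41%. DESeq2 also called 3 lower and 0 higher. With 2 libraries per group, an exact two-sided permutation test of a single gene cannot go below p = 0.333, so the adjusted p-values below, from edgeR unless DESeq2 is named, rest on the spread shared across genes.

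At 0 h, 5 of the 6 genes were at or near the limit of detection. *ELANE* and *PRTN3* had 0 counts in both libraries, *AZU1* had 0 and 1, *MPO* had 0 and 3, and *LYZ* had 3 and 6. *CTSG* had 7 and 14 counts. At a count of 0 in a library, up to 3 counts remain possible.

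In the 96 h control, all 6 transcripts were present in both libraries. *LYZ* had 52779 and 47474 counts, which corresponds to 4527 ± 185 CPM (SD, n = 2, as for all values with ±). *CTSG* had 371 and 326 counts (31.5 ± 1.81 CPM), *AZU1* 154 and 118 (12.3 ± 1.88 CPM), *MPO* 92 and 94 (8.41 ± 0.41 CPM), *ELANE* 29 and 28 (2.58 ± 0.02 CPM) and *PRTN3* 13 and 5 (0.81 ± 0.48 CPM). No library of the 96 h control overlapped a library at 0 h for any of these genes, as for 43.9% of all genes tested in this direction. Pooled over the replicates and relative to 0 h, *LYZ* was 11592-fold higher (exact 95% counting interval 6106 to 25351), *AZU1* 283-fold (50.4 to 11221), *MPO* 64.5-fold (21.7 to 316) and *CTSG* 34.5-fold (22.4 to 56.2). With the 0 h group set to a floor of 3 counts, *ELANE* was 19.8-fold and *PRTN3* 6.24-fold higher, taking the 96 h counts without error. These intervals cover counting error only. The 3 counts of *MPO* and the 1 count of *AZU1* at 0 h all came from replicate 2. Without that library the edgeR log2 fold change, which then depends on the prior count, was 9.47 instead of 5.90 for *MPO* and 10.02 instead of 7.81 for *AZU1*, and without replicate 1 it was 5.15 and 7.15. *PRTN3* was at 5.37 instead of 6.20 without control replicate 1, where it was no longer called (adjusted p = 0.0157). All 6 genes were called higher, compared with 25.4% of all genes tested, but each passed the filter on low counts through the 96 h libraries and therefore had to differ, so the count is given without weight. In bulk RNA, a few cells with much granule transcript and many cells with little cannot be told apart.

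**Figure D1:**
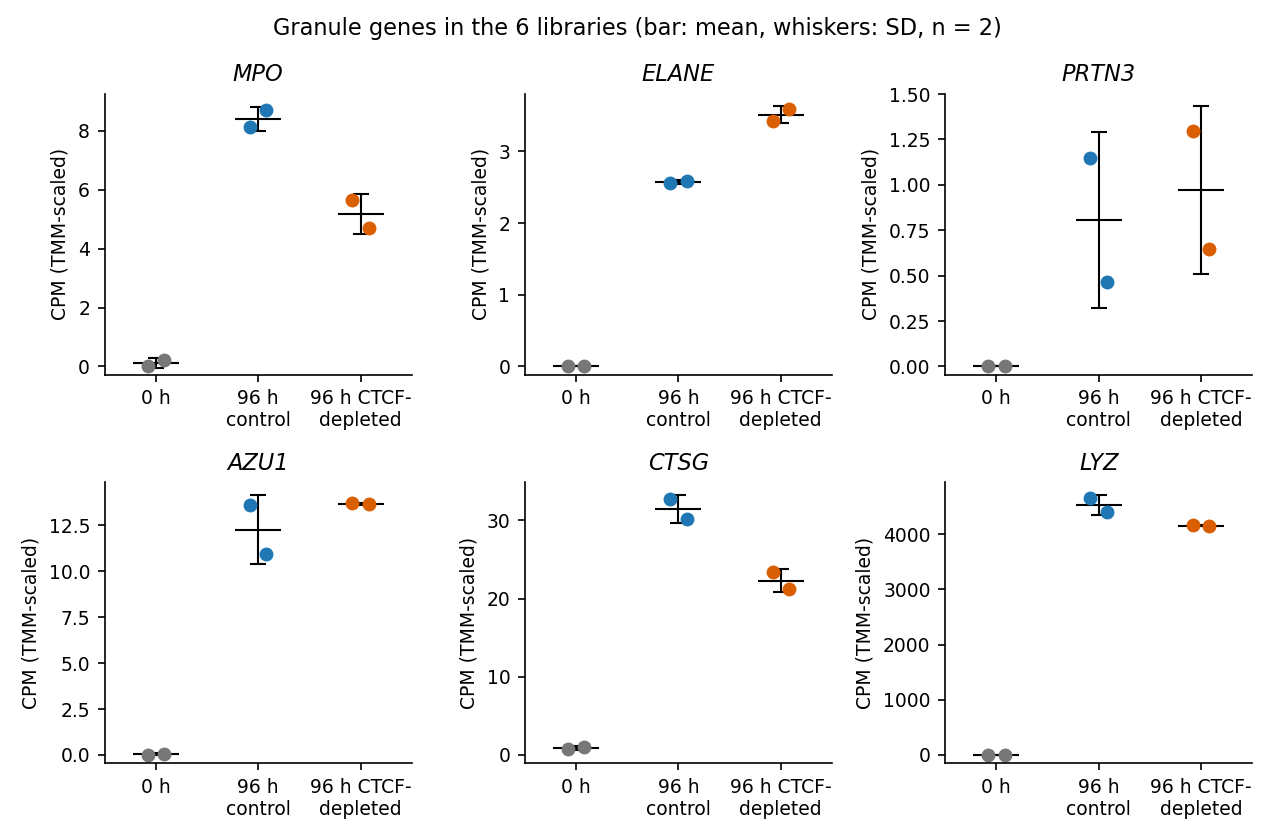
TMM-scaled CPM (linear axes from 0, scaled separately for each gene) of the 6 genes in each library, grouped as 0 h (gray), 96 h control (blue) and 96 h CTCF-depleted (orange), where points are libraries, bars are means and whiskers are SD (n = 2). *MPO*, *CTSG* and *LYZ* are lower in both CTCF-depleted libraries than in both control libraries, *ELANE* is higher in both, and the *PRTN3* libraries overlap.

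Scaled to transcript length, which allows genes to be compared, *LYZ* was at 3126 and 2951 CPM per kb in the 96 h control libraries and ranked 9 of 12500 tested genes with a known length. *CTSG* followed at 35.8 and 33.0, *AZU1* at 14.99 and 12.05, *ELANE* at 2.82 and 2.85, *MPO* at 2.52 and 2.71 and *PRTN3* at 1.16 and 0.47 CPM per kb. The libraries of neighbouring genes in this order did not overlap, but *ELANE* and *MPO* were not separated beyond counting error, with pooled levels of 2.83 (exact 95% Poisson interval 2.15 to 3.67) and 2.61 (2.25 to 3.02) CPM per kb. Per kb, *LYZ* was 56.0 times as abundant as the other 5 genes combined. In the 96 h control, 15.1% of the tested genes with a length lay above *CTSG*, 39.9% above *AZU1*, 75.3% above *ELANE*, 76.5% above *MPO* and 87.8% above *PRTN3*. Thus *LYZ* was among the most abundant transcripts, while the transcripts of the granule proteases and of myeloperoxidase ranged from moderately abundant to rare.

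The comparison of CTCF-depleted with control cells at 96 h addresses whether loss of CTCF changes the expression that the cells reach. Of the 6 genes, 1 was called lower (*MPO*) and 0 were called higher by edgeR, compared with 7.03% and 5.41% of all genes tested. DESeq2, the tool that the study used, called 0 genes in either direction. At an unadjusted p below 0.05 in edgeR, 3 genes were lower and 0 higher. The median log2 fold change of the 6 genes was 0.02, and that of all genes was -0.03.

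*MPO* was measured at 61 and 51 counts in CTCF-depleted cells, compared with 92 and 94 in control cells. Its mean level was 5.17 ± 0.67 CPM against 8.41 ± 0.41 CPM, and the log2 fold change was -0.70 (SE, standard error, 0.22; 95% interval -1.13 to -0.27, adjusted p = 0.00712). Both CTCF-depleted libraries lay below both control libraries, as for 37.8% of all genes tested. The call depends on each of the 4 libraries at 96 h. Without control replicate 1 or 2 the log2 fold change was -0.72 (adjusted p = 0.0522) or -0.62 (adjusted p = 0.103), and without CTCF-depleted replicate 1 or 2 it was -0.80 (adjusted p = 0.0193) or -0.54 (adjusted p = 0.121). DESeq2 gave -0.69 with an adjusted p of 0.112. *MPO* shares 25 of its 3186 stretches of 31 bases (0.785%) with *EPX*, its eosinophil paralog, which had 1 count in all 6 libraries together.

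*CTSG* was also lower in CTCF-depleted cells, with 252 and 231 counts compared with 371 and 326 in control cells. The level was 22.3 ± 1.45 CPM against 31.5 ± 1.81 CPM, without overlap between the libraries. The log2 fold change was -0.50 (SE 0.11, 95% interval -0.72 to -0.27, adjusted p = 2.32e-04), so *CTSG* passed the threshold on p but not the one on fold change and was not called.

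The 3 clustered genes on chromosome 19 did not pass the test in either direction. *AZU1* had 148 counts in each CTCF-depleted library, compared with 154 and 118 in the control, and its log2 fold change was 0.15 (SE 0.16, 95% interval -0.16 to 0.47, adjusted p = 0.472). *ELANE* had 37 and 39 counts, compared with 29 and 28, and its log2 fold change was 0.44 (SE 0.31, 95% interval -0.18 to 1.07, adjusted p = 0.271). In CPM, both CTCF-depleted libraries lay above both control libraries for *AZU1* (13.7 and 13.6 against 13.6 and 10.9) and for *ELANE* (3.43 and 3.59 against 2.56 and 2.59), as for 30.1% of all genes tested. *PRTN3* had 14 and 7 counts, compared with 13 and 5, so that its libraries overlapped. Its log2 fold change was 0.25 (SE 0.55, 95% interval -0.85 to 1.36, adjusted p = 0.76), and it became -0.21 without control replicate 2 and -0.29 without CTCF-depleted replicate 1. The interval of *PRTN3* includes changes past the threshold in both directions and that of *ELANE* a rise past it, so that changes of that size are not excluded.

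The mixture of the 5 transcripts other than *LYZ* also differed between the groups. *AZU1*, *PRTN3* and *ELANE* together had 196 and 151 counts in control libraries and 199 and 194 in CTCF-depleted libraries, and *MPO* and *CTSG* together had 463 and 420 against 313 and 282. The cluster thus contributed 29.7% and 26.4% of the counts of these 5 genes in control cells and 38.9% and 40.8% in CTCF-depleted cells. The difference in response between the genes was not tested.

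*LYZ* had 45020 and 45017 counts in CTCF-depleted cells, and 52779 and 47474 in control cells. The levels of 4158 ± 15.2 and 4527 ± 185 CPM did not overlap between the libraries. The log2 fold change was -0.12 (SE 0.05, 95% interval -0.22 to -0.02, adjusted p = 0.0408), which passed neither threshold, and its interval excludes a change past the threshold of 0.6 in either direction. Its rank per kb was 9 in both groups. *LYZ* overlaps 1 noncoding gene on the opposite strand over 733 bases, which has no row in the count table, and the strand setting of the counting is not given in the sources used here. Its transcript also shares 252 of 1460 stretches of 31 bases (17.3%) with 3517 other genes, so that a part of its reads could be placed in more than 1 gene.

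**Figure D2:**
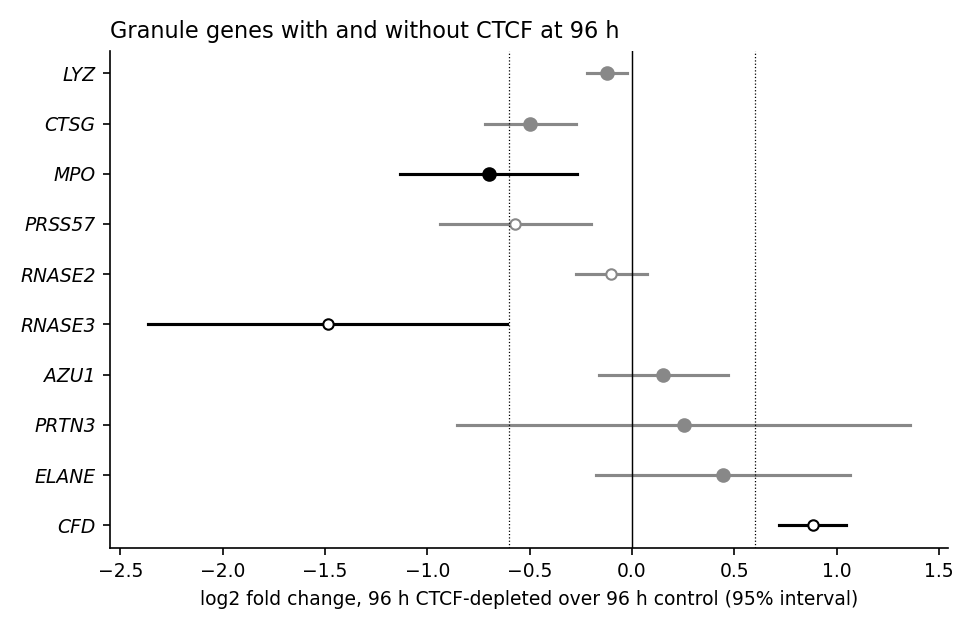
Log2 fold change of CTCF-depleted over control cells at 96 h (horizontal axis, points) with 95% intervals from edgeR (lines) for the 6 genes (filled points) and 4 related or neighbouring genes (open points), where black marks genes that were called and dotted lines mark the fold change threshold of 0.6. *MPO* at -0.70, *RNASE3* at -1.49 and *CFD* at 0.88 are the genes that were called.

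Relative to 0 h, each of the 6 genes was also called higher in CTCF-depleted cells, against 27.2% of all genes tested. Here, too, the genes passed the filter through the 96 h libraries, and the comparison uses the same 0 h libraries as that of the control. *LYZ* was 10638-fold higher than at 0 h (exact 95% counting interval 5604 to 23266), *AZU1* 315-fold (56.1 to 12474), *MPO* 39.7-fold (13.2 to 195) and *CTSG* 24.5-fold (15.8 to 39.9). With the same floor of 3 counts at 0 h, *ELANE* was 26.9-fold and *PRTN3* 7.44-fold higher. The same 0 h libraries moved the log2 fold changes here, to 8.80 for *MPO* and 10.20 for *AZU1* without replicate 2 and to 4.48 and 7.34 without replicate 1, compared with 5.20 and 7.97 with both. Scaled to length, the order in CTCF-depleted cells was *LYZ* at 2798 and 2783 CPM per kb, *CTSG* at 25.5 and 23.3, *AZU1* at 15.11 and 15.03, *ELANE* at 3.77 and 3.95, *MPO* at 1.76 and 1.46 and *PRTN3* at 1.31 and 0.65. *MPO* and *ELANE*, which stood side by side in the control, were separated here, with pooled intervals of 1.32 to 1.94 for *MPO* and 3.04 to 4.83 CPM per kb for *ELANE*, whereas the intervals of *MPO* and *PRTN3* (0.61 to 1.502) overlapped.

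Other products of primary granules were examined from a list of 8 genes, of which 3 had enough counts to be tested. For this and each following list, the shares of all genes tested that were called between the 96 h groups are again 5.41% higher and 7.03% lower. *RNASE2*, which encodes the eosinophil-derived neurotoxin, a ribonuclease also made in neutrophils and monocytes, had 536 and 473 counts in the control and 426 and 495 with CTCF depletion, with overlapping libraries and a log2 fold change of -0.10 (adjusted p = 0.395). *RNASE3*, which encodes the eosinophil cationic protein, had 28 and 24 counts in the control and 8 and 10 with CTCF depletion, and was called lower with a log2 fold change of -1.49 (SE 0.44, adjusted p = 0.00487). *RNASE3* passed the filter on low counts through the control libraries, so the call is given without weight. That call was lost in DESeq2 (adjusted p = 0.104), without control replicate 1 or 2 (adjusted p = 0.074 and 0.0383) and without CTCF-depleted replicate 1 or 2 (adjusted p = 0.0894 and 0.0388). *PRSS57*, which encodes the serine protease NSP4, had 135 and 111 counts in the control and 92 and 70 with CTCF depletion. Its log2 fold change of -0.57 (SE 0.18, adjusted p = 0.0108) fell short of both thresholds, and only without CTCF-depleted replicate 1 was it called (-0.74, adjusted p = 0.00981).

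At 0 h, *RNASE2* and *RNASE3* had 0 counts in both libraries. With the floor of 3 counts at 0 h, they were 350.0-fold and 18.0-fold higher in the control. *BPI*, which encodes the bactericidal permeability-increasing protein of primary granules, had only 4 and 5 counts in the control and 3 and 2 with CTCF depletion. The defensin genes *DEFA1*, *DEFA1B*, *DEFA3* and *DEFA4*, whose products are among the most abundant of neutrophil primary granules, had 0 counts in all 6 libraries, where the near-identical copies *DEFA1*, *DEFA1B* and *DEFA3* could lose reads that fit several genes. The primary granule genes were thus detected in part, with protease, peroxidase and ribonuclease transcripts present and defensin transcripts not detected.

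Secondary and tertiary granules form later in neutrophil development. Of 18 genes of these granules, 7 were tested, and 9 had at most 3 counts in every library. The latter include *LTF*, *LCN2*, *CEACAM8* and *OLFM4*, the lactoferrin, lipocalin, adhesion and olfactomedin genes that define specific granules. In contrast, *MMP9*, a gelatinase that macrophages also make, had 1787 and 1461 counts in the control and 2233 and 2014 with CTCF depletion, and *CAMP*, the cathelicidin gene, had 232 and 207 against 267 and 248. Neither was called between these groups, with log2 fold changes of 0.42 (adjusted p = 1.55e-07, below the fold change threshold) and 0.26 (adjusted p = 0.0889). The genes called higher with CTCF depletion were 2 of the 7 tested, *TCN1* (haptocorrin), with 6 and 10 counts against 61 and 38 and a log2 fold change of 2.64 (adjusted p = 2.70e-07), and *PTX3* (pentraxin 3), with a log2 fold change of 0.65 (adjusted p = 5.75e-05). *TCN1* passed the filter on low counts through the CTCF-depleted libraries, so its call is given without weight. *PTX3* fell below the fold change threshold without control replicate 2 (0.54) and without CTCF-depleted replicate 1 (0.52).

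The machinery that activates, sorts and stores granule proteins was represented by 11 genes, all tested. None of the 11 was called between CTCF-depleted and control cells by edgeR or DESeq2, and at an unadjusted p below 0.05 in edgeR 1 was higher and 2 were lower. *SRGN*, which encodes serglycin, the proteoglycan core that binds granule proteases, had 181 and 229 counts at 0 h, 21829 and 20384 in the control and 13918 and 13470 with CTCF depletion. Between the 96 h groups its log2 fold change of -0.59 (SE 0.05, adjusted p = 1.07e-16) was just short of the fold change threshold. *CTSC*, which encodes the dipeptidyl peptidase that removes the activation peptide of the granule serine proteases, had 2100 and 2896 counts at 0 h, 2529 and 2456 in the control and 2356 and 2295 with CTCF depletion. Its log2 fold change between the 96 h groups was -0.07 (adjusted p = 0.272), and relative to 0 h it was not called in either group.

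Of 9 inhibitors of the granule proteases, 7 were tested, and 3 of the 7 were called lower and 0 higher with CTCF depletion, compared with 7.03% and 5.41% of all genes tested. DESeq2 called 2 lower and 0 higher. The lower genes were *SLPI*, the secretory leukocyte protease inhibitor of elastase and cathepsin G, with 310 and 254 counts against 165 and 139 and a log2 fold change of -0.86 (adjusted p = 4.30e-07), *CST7* (cystatin F, which inhibits cysteine cathepsins including the protease activator CTSC) at -1.12 (adjusted p = 1.32e-12), and *A2M* (alpha-2-macroglobulin, a broad trap for proteases) at -1.33 (adjusted p = 7.69e-04). The *A2M* call was lost in DESeq2 (adjusted p = 0.0271), without control replicate 2 (adjusted p = 0.0655) and without CTCF-depleted replicate 1 (adjusted p = 0.0339). *SERPINB1*, the intracellular inhibitor of elastase, proteinase 3 and cathepsin G, had 2 and 1 counts at 0 h, 2300 and 2135 in the control and 2050 and 1972 with CTCF depletion, with a log2 fold change between the latter of -0.11 (adjusted p = 0.112). *SERPINA1*, which encodes the plasma inhibitor of elastase, had 1095 and 1018 counts against 1032 and 944 and was not called (log2 fold change -0.07, adjusted p = 0.51).

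The 14 regulators examined are transcription factors known to act on granule genes or on the choice between granulocytic and monocytic fates. Of these, 3 were called higher and 2 lower with CTCF depletion. *EGR1* and *EGR2*, zinc finger factors of the monocytic branch, had log2 fold changes of 2.96 (adjusted p = 8.81e-33) and 1.88 (adjusted p = 6.11e-13). *EGR1* was already high at 0 h, with 1706 and 1936 counts, compared with 157 and 149 in the control and 1215 and 1124 with CTCF depletion. *EGR2* had 11 and 9 counts at 0 h, 58 and 47 in the control and 206 and 173 with CTCF depletion. *IRF8*, which favors monocytes over granulocytes, was lower by a log2 fold change of -1.06 (adjusted p = 5.13e-24), and *CEBPD* by -1.56 (adjusted p = 9.70e-17). Both stayed above 0 h in both 96 h groups. *IRF8* had 147 and 144 counts at 0 h, 4036 and 3698 in the control and 1823 and 1814 with CTCF depletion. *CEBPD* had 1 and 3 counts at 0 h, 434 and 419 in the control and 148 and 135 with CTCF depletion. Between the 96 h groups, each of these 4 was called in the same direction in each of the 11 or 12 other fits that gave a value for it at these thresholds.

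The factors most directly tied to the promoters of primary granule genes were not called between the 96 h groups. *MYB* had 3735 and 3540 counts in the control and 3413 and 3433 with CTCF depletion (log2 fold change -0.06, adjusted p = 0.364), and both groups were below the 5362 and 7825 counts at 0 h. *CEBPA* had 3331 and 3294 counts against 3523 and 3148 (log2 fold change 0.04, adjusted p = 0.577), where reads from the exogenous copy may be included. *SPI1*, which encodes PU.1, had 3638 and 3413 counts against 2925 and 2857 (log2 fold change -0.25, adjusted p = 1.42e-05), and *CEBPB* 1644 and 1473 against 1062 and 1090 (log2 fold change -0.50, adjusted p = 5.41e-09), both below the fold change threshold. *CEBPE*, which drives secondary granule genes, had 27 and 32 counts against 17 and 20 (log2 fold change -0.64, adjusted p = 0.158). *GFI1* (-0.14, adjusted p = 0.148), *KLF4* (0.13, adjusted p = 0.17), *RUNX1* (0.06, adjusted p = 0.272) and *CBFB* (-0.14, adjusted p = 0.0284) had smaller log2 fold changes.

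Markers of earlier and later myeloid stages were measured in the same libraries. Of 11 markers of promyelocytes and progenitors, 8 were tested. Relative to 0 h, 4 were called higher in the control and 1 lower (*KIT*), compared with 25.4% and 22.9% of all genes tested. Among the higher ones, *CLEC5A* had 0 counts in both libraries at 0 h and 1627 and 1397 in the control. *CLEC5A*, and likewise *CPA3* and *PRSS57* among the higher ones, passed the filter on low counts through the 96 h libraries. *KIT* had 20 and 50 counts at 0 h and at most 1 in each library at 96 h, so it passed through the 0 h libraries. The calls of these genes are therefore given without weight. *MS4A3* and *CD34* had at most 3 counts in every library. Of the 8 tested between the 96 h groups, 2 were called lower with CTCF depletion and 0 higher, *IGFBP2* (log2 fold change -0.84, adjusted p = 5.86e-14) and *CLEC11A* (-0.60, adjusted p = 7.35e-12). DESeq2 called 1 of the 8. At an unadjusted p below 0.05 in edgeR, 6 were lower and 0 higher, and the log2 fold changes of the 8 ranged from -0.85 to -0.24. The summed level of the 11 markers was 207 and 215 CPM at 0 h, 451 and 480 CPM in the control and 314 and 319 CPM with CTCF depletion.

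Of 12 monocyte markers, 11 were tested, and the summed level of the list was 32.5 and 36.9 CPM at 0 h, 4580 and 4786 CPM in the control and 3490 and 3798 CPM with CTCF depletion. At 96 h, *S100A9* (mean 3140 CPM in the control, 2255 CPM with CTCF depletion) and *S100A8* (756 and 573 CPM) made up most of this sum. At an unadjusted p below 0.05 in edgeR, 3 were higher and 7 lower with CTCF depletion. Between the 96 h groups, 1 was called higher, *ITGAM* (the CD11b integrin, log2 fold change 1.15, adjusted p = 1.43e-24), and 2 lower, among them *CD36* (a scavenger receptor, -1.54, adjusted p = 1.34e-17). Of 15 macrophage markers, 11 were tested, and 5 were called lower and 1 higher with CTCF depletion. The lower ones include *CTSB* (cathepsin B, -0.66, adjusted p = 3.15e-18), *MRC1* (the mannose receptor, -1.33, adjusted p = 3.95e-14) and *MSR1* (-0.61, adjusted p = 1.36e-09), and the higher one is *APOE* (2.31, adjusted p = 2.98e-06). DESeq2 called 2 lower and 1 higher. *APOE*, with 4 and 15 counts in the control, passed the filter on low counts through the CTCF-depleted libraries. *GPNMB* and *FABP4* had at most 1 count in any library, while *CTSL* is listed at 0 throughout, which cannot be read as absence of its transcript, since the annotation used for counting is not known. At an unadjusted p below 0.05 in edgeR, 5 macrophage markers were higher and 5 lower with CTCF depletion. Summed macrophage markers ranged from 91.1 to 105.5 CPM at 0 h, 2299 to 2315 CPM in the control and 1792 to 1937 CPM with CTCF depletion. *CTSB* was the largest part of this sum at 96 h, at a mean of 1247 CPM in the control and 789 CPM with CTCF depletion, so the sum does not describe the list as a whole.

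Of 9 neutrophil markers, *FCGR3B*, *CEACAM8* and *ALPL* had at most 3 counts in every library. The list's summed level was 0.72 and 0.83 CPM at 0 h, 81.2 and 87.3 CPM in the control and 60.4 and 67.0 CPM with CTCF depletion. *CSF3R*, at a mean of 71.8 CPM in the control and 52.7 CPM with CTCF depletion, made up most of that sum, which also holds *MPO* and *ELANE*. The 4 tested genes, *CSF3R*, *CXCR2*, *MPO* and *ELANE*, were called higher in the control than at 0 h, compared with 25.4% of all genes tested. They passed the filter on low counts through the 96 h libraries. Between the 96 h groups, *MPO* was the only one of the 4 called. Of 9 genes of eosinophil, basophil and mast cell granules, 6 had at most 3 counts in every library, and neither of the 2 tested was called between the 96 h groups by edgeR or DESeq2. Of 8 markers of T and NK cells, 3 were tested and *GZMA* was called higher with CTCF depletion (log2 fold change 1.38, adjusted p = 4.41e-07), while *CD3D*, *CD3E* and *CD3G* had at most 3 counts everywhere. Pooled over replicates, *GZMA* had 1164 counts at 0 h, 60 in the control and 153 with CTCF depletion. It was called lower than at 0 h in both 96 h groups. Of 8 erythroid and megakaryocyte markers, 6 had at most 3 counts everywhere and neither of the 2 tested was called between the 96 h groups by edgeR or DESeq2. The part that other cell types, or cells at different stages, have in the levels of the granule genes was not tested.

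**Figure D3:**
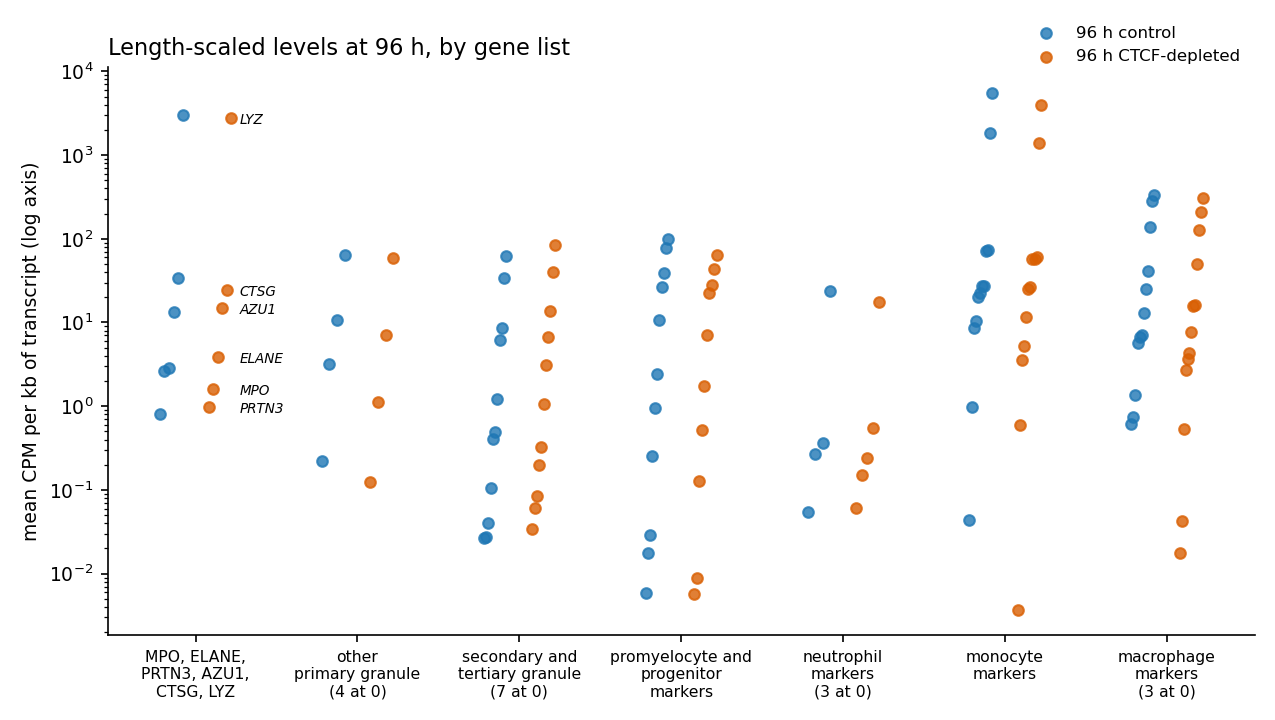
Mean length-scaled level (CPM per kb, log axis) at 96 h of each detected gene, by gene list, in control (blue) and CTCF-depleted cells (orange), where each point is 1 gene (mean of 2 libraries). Genes at 0 in the control are counted under the axis, including those drawn for CTCF-depleted cells only, such as *LTF* and *CEACAM8*. *MPO* and *ELANE*, also on the neutrophil list, are drawn once. *LYZ* lies with the most abundant monocyte markers, at 3038 CPM per kb in the control, and the next of the 6, *CTSG*, lies 88.3-fold lower in control cells.

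Of 8 other genes of the lysozyme family, 7 had at most 3 counts in every library. *LYG1*, a goose-type lysozyme gene, had 41 and 52 counts at 0 h, 56 and 47 in the control and 53 and 81 with CTCF depletion, with overlapping libraries and a log2 fold change of 0.41 between the latter groups (adjusted p = 0.158). Of the 9 lysozyme genes, *LYZ* and *LYG1* were thus the ones with enough counts to be tested.

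Genes near the 6 loci were examined because CTCF is known to insulate genes from regulatory elements beyond its binding sites. Around the *AZU1*, *PRTN3* and *ELANE* cluster, 12 of 15 neighbours were tested, and 1 was called higher and 0 lower with CTCF depletion. The called gene is *CFD*, which encodes complement factor D, another serine protease, and starts 31.8 kb downstream of *AZU1*, next to *ELANE*. *CFD* had 1 and 0 counts at 0 h, 439 and 367 in the control and 708 and 746 with CTCF depletion, and its log2 fold change between the 96 h groups was 0.88 (SE 0.08, adjusted p = 1.45e-13). It was called higher in all 11 other fits that gave a value at these thresholds, with log2 fold changes from 0.82 to 1.01. *PTBP1*, on the other side of *AZU1*, had a log2 fold change of -0.15 (adjusted p = 0.00874) and *MED16*, beyond *CFD*, of -0.21 (adjusted p = 0.0379). *LPPR3* (now *PLPPR3*), a tested neighbour for which no position was obtained, had 0 counts at 0 h. Pooled over replicates it had 34 counts in the control and 48 with CTCF depletion, and it was not called between these groups. *PRSS57*, described above, starts 132 kb upstream of *AZU1*. Of the 4 adjacent genes from *AZU1* to *CFD*, only *CFD* passed the test. Their log2 fold changes were 0.15, 0.25, 0.44 and 0.88, but that of *PRTN3* ranged from -0.29 to 1.08 when 1 library was left out, so that no order by position can be read from them.

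**Figure D4:**
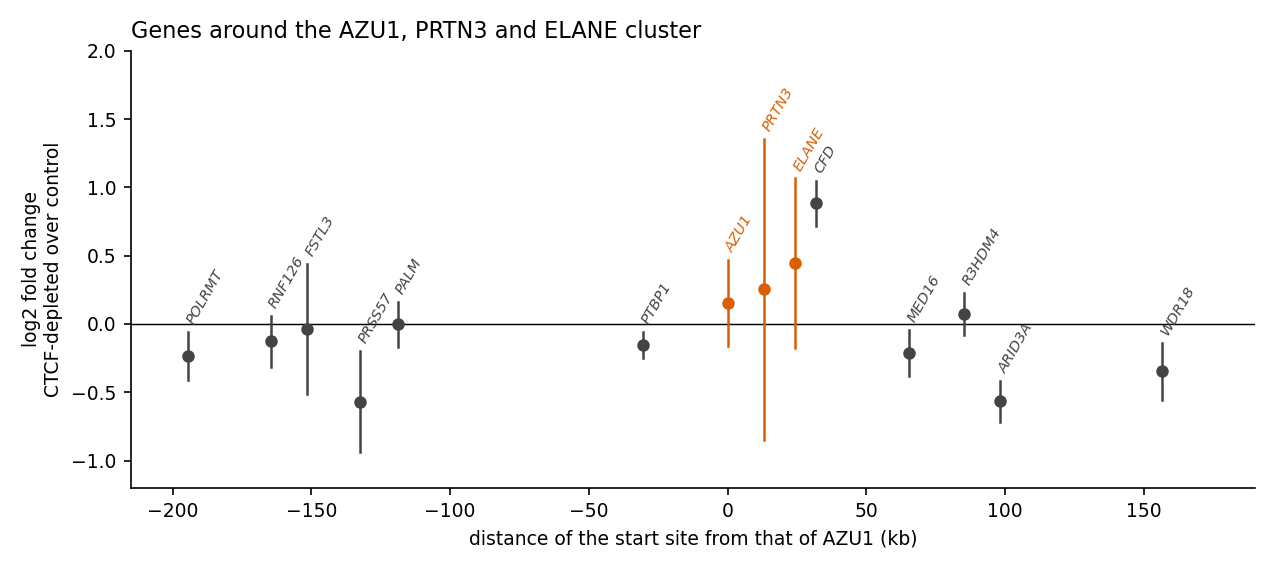
Log2 fold change of CTCF-depleted over control cells at 96 h (vertical axis, points) with 95% intervals from edgeR (lines) for tested genes around the cluster that have a position, by the distance of the start site from that of *AZU1* in kb (horizontal axis), with *AZU1*, *PRTN3* and *ELANE* in orange. The tested neighbour *LPPR3* (now *PLPPR3*) has no position here and is not shown. *CFD* at 0.88 is the only gene shown that was called, and the interval of *PRTN3* is the widest, from -0.85 to 1.36.

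Near *MPO*, 5 of 8 neighbours were tested, with 1 called lower, *BZRAP1* (now *TSPOAP1*, log2 fold change -0.78, adjusted p = 6.18e-21), and 1 called higher, *SEPT4* (now *SEPTIN4*, 2 and 5 counts against 15 and 17, log2 fold change 2.18, adjusted p = 0.00248). DESeq2 called *BZRAP1* but not *SEPT4*. *SEPT4* passed the filter on low counts through the CTCF-depleted libraries, so its call is given without weight. Near *CTSG*, the related protease genes *GZMB*, *GZMH* and *CMA1* had at most 3 counts in every library, and the 2 neighbours tested, *NFATC4* (0.56, adjusted p = 3.48e-07) and *NYNRIN* (0.30, adjusted p = 0.00216), were not called. Near *LYZ*, none of 6 tested neighbours was called by edgeR or DESeq2, where 5 had an unadjusted p below 0.05 with a negative log2 fold change and 1 with a positive one. *YEATS4*, which starts 11.4 kb downstream of *LYZ*, had a log2 fold change of -0.32 (adjusted p = 0.0131).

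The genes with the most similar profiles were taken as those with the smallest Euclidean distance of log2 CPM over the 6 libraries, each gene centred on its own mean. These distances describe 3 conditions and share the library sizes, and the 0 h values of low genes depend on the added prior count of 2. For *LYZ*, the nearest genes were *S100A9* (distance 1.15), *S100A8* (1.33) and *STAB1* (1.86), of which *S100A8* and *S100A9* encode the calprotectin subunits that neutrophils and monocytes store in the cytosol. *S100A9* had 0 counts in both libraries at 0 h, 36547 and 32985 in the control and 25486 and 23333 with CTCF depletion, a log2 fold change of -0.48 between the 96 h groups (adjusted p = 4.90e-12), compared with -0.12 for *LYZ*. *CTSG* was nearest to *GALNT3* (0.29), *BTBD11* (0.36) and *AMICA1* (0.36), and *MPO* to *MIR1537* (0.29), *SEL1L3* (0.35) and *GPRC5C* (0.42), of which *GPRC5C* was called lower with CTCF depletion (log2 fold change -0.66, adjusted p = 6.74e-05). *AZU1* was nearest to *COL23A1* (0.16), *NFKBIZ* (0.37) and *ACVRL1* (0.38), *ELANE* to *ADORA2B* (0.27), *TMEM173* (0.28) and *CD93* (0.31), and *PRTN3* to *LOC102724740* (0.30), *SLC22A18AS* (0.43) and *ZG16B* (0.53). None of the 6 genes had another of the 6 among its 3 nearest.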

How the data were processed

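The authors aligned the RNA-seq reads to hg38 with STAR (version 2.6.1d) and counted reads over exons with featureCounts (version 2.0.6); the deposited values are raw counts per gene, without normalization. The annotation release and the strand setting are not given in the sources used here. RNA was ribosome-depleted total RNA, and molecular identifiers were not described, so that counting intervals cover counting error only.

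Counts of all 6 libraries entered 1 fit in R 4.3.3 with edgeR 4.0.16 (filterByExpr, TMM, quasi-likelihood test, condition as the only term), and Benjamini-Hochberg adjustment ran over 14758 genes, which hold 99.9% of the counts of each library. Standard errors follow from each log2 fold change and its F value. The common biological coefficient of variation was 3.96%. Replicates differed by more than sampling noise (chi-square per degree of freedom 1.71 to 2.69), and no library was merged or left out of the main comparisons. DESeq2 1.42.0, RLE normalization, other filters and thresholds, glmTreat, a fit of the 4 libraries compared, a replicate block and leaving out each library were tried as alternatives. Levels per kb used the length of the canonical transcript in GENCODE release 44, known for 84.7% of the genes tested. Summaries and plots used Python 3.11.15, pandas 2.3.3, numpy 2.4.6, scipy 1.17.1 and matplotlib 3.10.9. The fit was tested on simulated data.

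The 6 genes and all gene lists were chosen with earlier results of these data known. Genes named besides the 6 are those of the lists of other primary granule genes, regulators and neighbours, up to 4 called genes of each other list by smallest adjusted p, defining genes that were not detected, and the 3 nearest profiles of each of the 6. *CTSC*, *SRGN*, *SERPINB1*, *SERPINA1*, *MMP9*, *CAMP*, *LYG1* and *KIT* fall outside this rule and were chosen after their values were seen. Some genes that the rule covers are not reported here by name.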

Additional observations from a re-analysis of the deposited data

Results flagged for a closer look

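*MPO* was called lower in CTCF-depleted than in control cells at 96 h in the main fit, but the call was lost in DESeq2 and without any 1 of the 4 libraries at 96 h. No 0 h library had IAA, so a difference in the response to induction cannot be told from a difference in level. The log2 fold change of CTCF-depleted over control cells at 96 h was -0.70 (adjusted p = 0.00712 in edgeR's quasi-likelihood test), with 61 and 51 counts against 92 and 94, and both CTCF-depleted libraries lay below both control libraries. Both groups share the 0 h libraries, where *MPO* had 0 and 3 counts. Over 11 other fits, the adjusted p ranged from 0.00357 to 0.121. No test for outlying libraries was run, since groups of 2 do not allow one.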

How the results depend on the processing

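Over all fits that tested them, *CTSG* (log2 fold change from -0.53 to -0.40) and *LYZ* (from -0.13 to -0.05) remained lower and *ELANE* (from 0.44 to 0.52) and *AZU1* (from 0.04 to 0.36) higher in CTCF-depleted than in control cells at 96 h, and at the thresholds of the report none of these 4 was called. The number of the 6 genes called lower in that comparison, 1 in the report, was 0 with DESeq2, with glmTreat against 0.6, with an absolute log2 fold change above 1 and with at least 10 counts in every library, which leaves 0 of the 6 tested, and it was 3 (*MPO*, *CTSG* and *LYZ*) when only an adjusted p below 0.05 was required. It ranged from 0 to 1 when 1 library was left out. *MPO* was -0.69 (adjusted p = 0.112) in DESeq2 and ranged from -0.80 to -0.54 when 1 library was left out, with adjusted p from 0.00526 to 0.121. *PRTN3* ranged from -0.29 to 1.08 when 1 library was left out, and was -0.21 without control replicate 2 and -0.29 without CTCF-depleted replicate 1; *RNASE2* ranged from -0.18 to 0.040 and was positive without CTCF-depleted replicate 1. The cause of these shifts was not tested. With at least 10 counts in every library, 0 of the 6 genes were called higher at 96 h than at 0 h in either group, since none was tested. Against 0 h in the control, *PRTN3* ranged from 5.37 to 6.69 when 1 library was left out and was not called without control replicate 1 (adjusted p = 0.0157). *PRTN3* could not be tested against 0 h in fits of only the 4 libraries compared, and between the 96 h groups DESeq2 gave no adjusted p for it.

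Same-numbered libraries were not paired, since the deviations of same-numbered libraries correlated by -0.0194, 0.0109 and -0.0294 between the 3 pairs of groups. With the replicate number as a block, *MPO* was called lower at -0.70 (adjusted p = 0.00809) and the number of the 6 genes called was 6, 1 and 6 in the 3 comparisons, as without it.

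At 57 counts (*ELANE*) and 18 counts (*PRTN3*) over the control group, depth limits what can be seen for these genes. The fits of 15 further genes were added after seeing the data. Of the 108 counts of genes called on the gene lists, 11 moved by more than 1.5 times in DESeq2, 2 with RLE normalization, 2 without a filter, 40 with at least 10 counts in every library, 17 with an absolute log2 fold change above 1 and 28 when only an adjusted p below 0.05 was required. No alternative moved the median log2 fold change of all genes by over 0.1.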
